A study of Mus musculus with 10 samples.

Results

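Voltage-gated potassium channels were followed in the hippocampus of female P301S mice (PS19 line, labelled hTau), which carry a human Tau transgene with the P301S mutation, after a DHT or a void implant. The mouse Prnp promoter drives the transgene. The genes were selected on their symbols and on measured values: a mouse symbol of the Kcna, Kcnb, Kcnc, Kcnd, Kcnf, Kcng, Kcnh, Kcnq, Kcns, Kcnv or Kcnab series and a total of at least 10 raw counts over the 10 libraries. The pattern matched 43 symbols and the count minimum kept 42 genes of the 56884 in the table. Kcna10, with 13 counts in all, lay just inside the minimum and Kcna7, with 1 count, just outside it.

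All mice were ovary-intact P301S females. At 6 months of age 5 received a subcutaneous SILASTIC implant packed with 10 mm of dihydrotestosterone (DHT), an androgen that aromatase does not turn into estrogen, and 5 received a void implant of the same tubing. Hippocampi were collected after 12 weeks, at 9 to 9.5 months, and gave 1 mRNA library per mouse, so each replicate was a mouse. No mouse without the transgene and no male was in the series, and values therefore describe DHT on the P301S background alone. The void mice were numbered 4, 5, 9, 10 and 11 and the DHT mice 1, 2, 3, 5 and 6. The numbers after S in the sample labels are lower for every void mouse than for every DHT mouse. The labels do not say what these numbers stand for, and any batch behind them cannot be told apart from DHT.

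Voltage-gated potassium (Kv) channels open when the membrane depolarizes and let potassium leave the cell, which repolarizes neurons and sets how often and how regularly they fire. A channel is a ring of alpha subunits around a shared pore. Subunits of the Shaker (Kv1), Shab (Kv2), Shaw (Kv3), Shal (Kv4), KCNQ (Kv7) and EAG, ERG and ELK (Kcnh) families form channels with members of their own family, whereas the electrically silent subunits (Kcnf, Kcng, Kcns and Kcnv) do not conduct alone and modify Shab channels, and the cytoplasmic Kv beta subunits (Kcnab) bind Shaker channels. In the hippocampus these families shape the action potential in axons, cell bodies and dendrites.

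The feature that alpha subunits share is the selectivity filter, read in most families as glycine, tyrosine, glycine and in the EAG, ERG and ELK family as glycine, phenylalanine, glycine. The coding sequence of 1 GENCODE M21 transcript per gene (GRCm38) was searched in frame for 8-letter stretches that can spell these residues, GGNTANGG and GGNTTNGG, on the coding strand alone. In GGNTTNGG the middle residue can also be leucine, so its matches are not all glycine, phenylalanine, glycine. At the site most alike between members, 31 of the 39 alpha subunits, silent ones included, held GGNTANGG, and the 8 Kcnh genes held GGNTTNGG. The 3 Kv beta genes, which line no pore, held neither. Over all 21815 coding sequences searched, 6% held GGNTANGG and 11.9% held GGNTTNGG in frame at any place, so a match by itself is common. The stretches below, 48 bases each, are shown for Kcna2, which passed the test below, and for some members of its own and other families. The filter bases are in capitals, and no Shal or KCNQ member is among them.
Kcna2: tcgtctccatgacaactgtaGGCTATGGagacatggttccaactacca
Kcna1: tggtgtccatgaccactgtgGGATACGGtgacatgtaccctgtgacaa
Kcnb2: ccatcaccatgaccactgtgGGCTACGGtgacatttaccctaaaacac
Kcnc2: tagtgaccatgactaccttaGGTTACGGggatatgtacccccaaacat
Kcnf1: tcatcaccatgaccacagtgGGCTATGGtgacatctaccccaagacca
Kcns2: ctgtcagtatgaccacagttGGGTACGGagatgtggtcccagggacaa
Kcnh4: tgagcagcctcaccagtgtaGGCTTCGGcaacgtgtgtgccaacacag
Kcnh7: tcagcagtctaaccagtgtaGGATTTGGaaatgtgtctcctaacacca

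The Kcna2 stretch lies at chr3:107105210-107105257 on the plus strand, in coding exon sequence of exon 3 of 3, and the Kcna1 stretch at chr6:126642209-126642256 on the minus strand, in exon 2 of 2. The Kcnb2 stretch lies at chr1:15710032-15710079 on the plus strand, in exon 2 of 2. The remaining stretches lie at chr10:112456215-112456262 (Kcnc2, plus strand, exon 3 of 5), chr12:17175042-17175089 (Kcnf1, minus strand, exon 1 of 1), chr15:34839598-34839645 (Kcns2, plus strand, exon 2 of 2), chr11:100750274-100750321 (Kcnh4, minus strand, exon 8 of 17) and chr2:62777324-62777371 (Kcnh7, minus strand, exon 8 of 16). Kcnb2 shared 40 of the 48 bases with the silent Kcnf1 and 30 with the silent Kcns2. Kcna2 shared 33 bases with Kcna1, 32 with Kcnb2 and 29 with Kcnh7. Whole transcripts, not the pore alone, were also compared. Among the 861 pairs of members, the longest run common to their transcripts was 91 bases (Kcna5 and Kcna6), against reads of 100 bases before trimming. Whether trimmed reads were unique to a member was not tested.

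Several members sit side by side in the genome. Kcna3, Kcna2 and Kcna10 lie in that order on chromosome 3, with Kcnd3 before and Kcnc4 after them, and Kcna5, Kcna1 and Kcna6 lie together on chromosome 6. Exons of 12 members overlap another annotated gene, and the strand setting of the counting was not given, so reads of such pairs cannot be told apart. The overlap with a gene on the opposite strand covered 39.6% of the exon bases of Kcna6, 4.57% of those of Kcnh7 and none of Kcna2. RefSeq promoter sequences (GRCm38.p6, 250 bases before to 50 after a start site) were found for 26 members, which had 35 promoters between them. The hexamer AGAACA, to which the androgen receptor binds in pairs, was present on either strand in 14.3% of member promoters and 19% of all 32851 promoters. By gene, 2 of the 26 members held it, and 4 of the 5 promoters with a match were those of Kcnc2, some of which overlap. AGGTCA, bound by several nuclear receptors, was in 8.57% and 16.3%, and the GC box GGGCGG in 57.1% and 35.7%. The median GC content was 62.7% in member promoters and 52.7% in all promoters, and its part in these shares was not tested.

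Levels were compared between genes as CPM (counts per 1000000 counts of a library in the genes tested, after TMM scaling) per kilobase of exon, averaged over the 10 mice. Kcnab2, the Kv beta subunit that aids the delivery of Shaker channels to axons, had the highest value, 106.6 ± 11.6 CPM per kb (SD, n = 10), and its lowest mouse was above the highest mouse of every other member. Kcnd2, the main A-type channel of pyramidal dendrites, followed at 38.0 ± 3.60, and Kcna2 stood at 32.5 ± 2.61. Kcnq3, a subunit of the M-current, stood at 29.9 ± 3.45 and Kcna1, the partner of Kcna2, at 28.8 ± 1.92. From Kcnd2 to Kcna1, each gene overlapped the next in its range over mice. Over the whole order, 38 of the 41 neighbouring pairs overlapped. The 5 highest genes held 42% of the summed level, 19 genes reached 10 CPM per kb, 16 lay between 1 and 10 and 7 lay under 1.

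**Figure D1:**
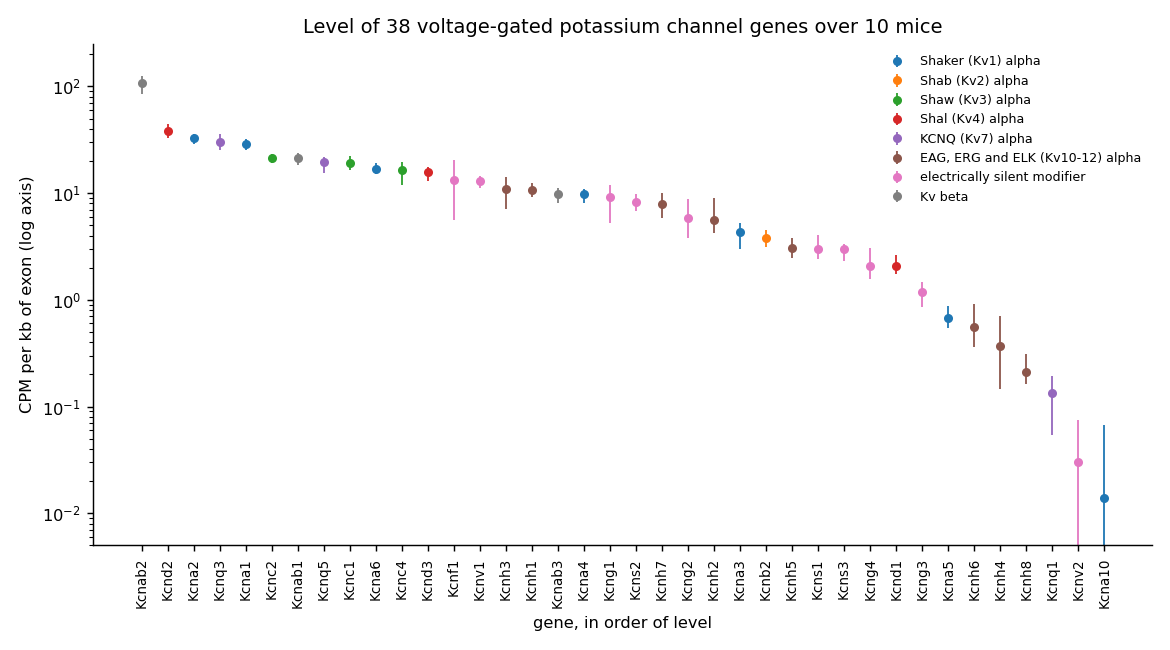
Length-scaled level of each of 38 members in CPM per kb of exon (log axis), with points at the mean over 10 mice and bars from the lowest to the highest mouse. Kcnab2 stands alone at 106.6, and the bars of Kcnv2 and Kcna10 run off the axis because their lowest mouse was at 0.

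Kcna2 had the highest level in the Shaker family, Kcnd2 in the Shal family, Kcnh3 (10.9 ± 2.43) among the EAG, ERG and ELK genes, Kcnf1 (13.4 ± 3.81) among the silent subunits and Kcnab2 among the beta subunits. At the low end were Kcna5, Kcnh6, Kcnh4, Kcnh8 and Kcnq1, a channel best known in heart and epithelia, at 0.133 ± 0.0392 CPM per kb. Kcnv2 and Kcna10 had too few counts for the test and hold no fold change here. Kcnv2, a silent subunit known from photoreceptors, was at 0 to 0.186 CPM in void mice and at 0.150 to 0.383 CPM in DHT mice, from 58 counts in all. Kcna10 was at 0 to 0.0423 CPM in void mice and at 0 to 0.147 in DHT mice.

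The question of the comparison was what DHT did to transcript levels in these females, here for the 40 members tested among 17622 genes. With DHT, 2 members were lower and 0 were higher at an adjusted p under 0.05 in the quasi-likelihood test of edgeR, adjusted by Benjamini-Hochberg over every gene tested. Kcna2 was among those lower. Over all genes tested, 0.261% were called lower and 5.22% higher. No member passed when the log2 fold change also had to exceed 1, which 0.0227% of genes did downward and 2.17% upward. At an unadjusted p under 0.05, 12 members were lower and 0 higher, against 4.22% and 13.1% of all genes, and DESeq2 called 5 members lower and 0 higher. Over the 20716 genes with an adjusted p in DESeq2, 226 were called lower and 1220 higher. The log2 fold change was below 0 in 32 of the 40 members (80%), against 47.6% of all genes, with a median of -0.15 against 0.0094. Among the 10203 genes with a mean above 10 CPM, as 29 members have, 52.2% were below 0. Estimated changes were small: 39 of the 40 lay within 0.5 of 0 on the log2 scale. The whole 95% interval lay within 0.5 of 0 in 25 members, and larger changes were not excluded in the rest.

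Kcna2 (ENSMUSG00000040724, chr3:107101146-107115005 on the plus strand of GRCm38) is the low-threshold Shaker channel of axons and their initial segments. It was at 421, 413, 400, 422 and 413 CPM in void mice 10, 11, 4, 5 and 9. In DHT mice 1, 2, 3, 5 and 6 it was at 369, 385, 345, 344 and 360 CPM. Every DHT mouse was below every void mouse, with DHT 2 nearest to the void range. The means were 414 ± 9.03 and 360 ± 17.3 CPM (SD, n = 5 each). The log2 fold change was -0.20 (SE 0.049, 95% interval -0.31 to -0.093), or -12.9%, with an adjusted p of 0.0349. Over all members tested, 2 of 40 had every DHT mouse below every void mouse and 0 the reverse, against 0.88% and 5.39% of all genes tested.

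**Figure D2:**
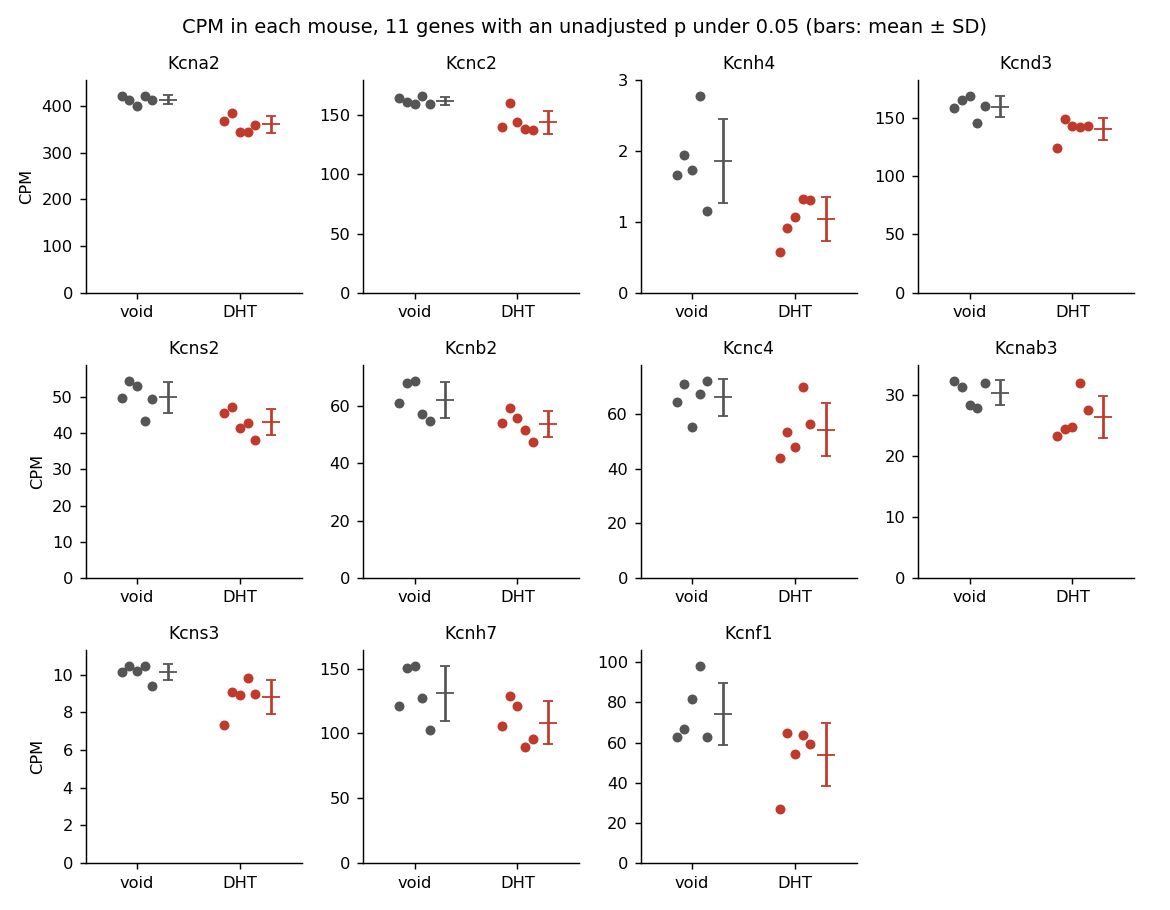
CPM of 11 members with an unadjusted p under 0.05 in each mouse (points) with the group mean and SD (bars), on axes that start at 0. Kcna2 parts the groups, at 344 to 385 CPM with DHT against 400 to 422 with void, while the groups overlap in the other genes plotted.

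The call of Kcna2 lay near the threshold. It kept an adjusted p under 0.05 in 1 of the 10 fits that left out 1 mouse, the one without DHT 2, with adjusted p from 0.0249 to 0.0904 and a log2 fold change from -0.24 to -0.19 across them. The number of members called lower in these fits ran from 0 to 3, with 3 in the fit without DHT 2, where 77 of 17777 genes were called lower.

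Markers of other cells differed between the same groups. In these bulk data, fewer cells of a type and less RNA per cell cannot be told apart. The 12 neuron markers summed to 7902 to 8759 CPM in void and 6922 to 7797 CPM in DHT mice, with a negative log2 fold change in 12 of 12, of which 0 passed the test. The 10 markers of inhibitory neurons, in which Shaw channels are prominent, summed to 1162 to 1201 CPM in void and 923 to 1259 in DHT mice. Of these 10, 8 had a negative log2 fold change and 0 passed the test. The 14 microglia markers summed to 523 to 633 CPM in void and 754 to 1178 in DHT mice, with 9 higher. The 12 choroid plexus markers summed to 360 to 3273 CPM in void and 3911 to 5744 in DHT mice, with 4 higher, and void 9 was the highest of its group. Markers of hippocampal cells were present throughout. Those of dentate granule cells summed to 402 to 629 CPM in void and 398 to 598 in DHT mice, with 1 called lower. Those of CA1 and CA3 pyramidal cells summed to 543 to 708 and 506 to 719, also with 1 called lower. The 8 excitatory neuron markers summed to 4776 to 5647 CPM in void and 4201 to 6212 in DHT mice. Of them, 4 had a negative log2 fold change and 1 was called lower. The 8 striatum markers summed to 95.6 to 113 CPM in void and 114 to 143 in DHT mice, with 1 higher. A log2 fold change below 0 was nevertheless found in 5 of these 8. Ppp1r1b, the striatum marker with the highest level, was at 32.4 to 59.4 CPM in void and 59.2 to 82.6 in DHT mice. No defining marker of these lists was at 0 in all mice. The summed level of the 42 channel genes was 4320 to 4797 CPM in void mice, with a median of 4766, and 3945 to 4592 in DHT mice, with a median of 4335. The groups overlapped through void 5, the lowest void mouse.

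With the libraries scaled on the neuron markers, the median of all genes tested moved to 0.13, Kcna2 stood at -0.073 (adjusted p = 0.525) and 0 members were called in either direction, against 7 genes lower and 1825 higher of all 17622. Relative to the median of all genes, the members' median was -0.17 on that scale and -0.16 with TMM. A change of scale moves every gene by about the same amount, so these values were bound to be alike and test nothing. With a choroid plexus score as a covariate, Kcna2 stood at -0.18 (adjusted p = 0.722) and 0 members were called, as were 0 of all 17622 genes in either direction. The choroid plexus sums did not overlap between the groups, so this fit could hardly tell the score from DHT. The SE of Kcna2 rose from 0.049 to 0.083 with the score. The part of these markers in the results was not tested.

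**Figure D3:**
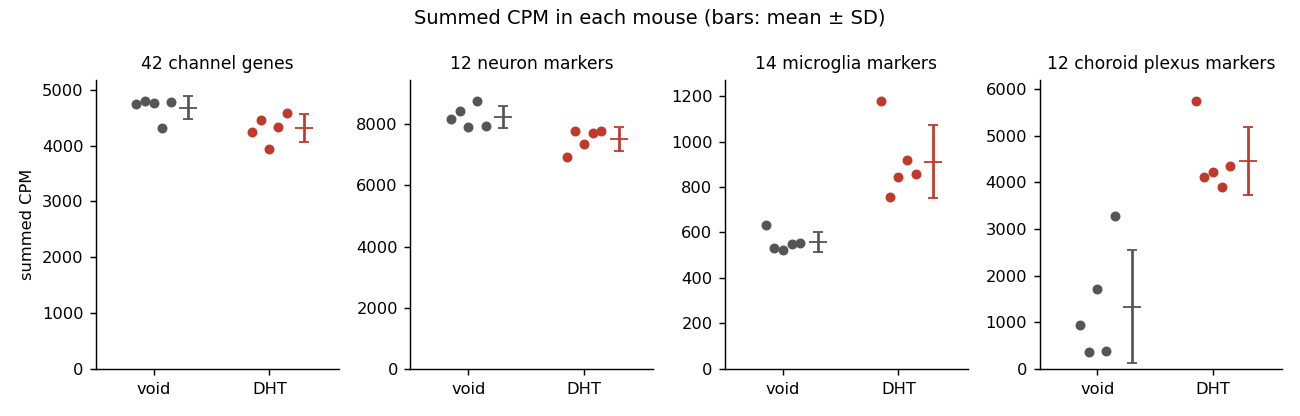
Summed CPM of the 42 channel genes and of the neuron, microglia and choroid plexus marker lists in each mouse (points), with the group mean and SD (bars). Channel genes overlap between groups through void 5, while neuron markers (7902 to 8759 against 6922 to 7797) and microglia markers (523 to 633 against 754 to 1178) do not.

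In the Shaker family 5 of 6 members tested were below 0 and only Kcna2 passed the test, with a median log2 fold change of -0.082. Kcna1, which forms mixed channels with Kcna2, was at 139 ± 12.7 CPM in void and 137 ± 5.24 in DHT mice, with a log2 fold change of -0.018 (95% interval -0.16 to 0.13). The interval of Kcna1 overlapped that of Kcna2, and the difference between the genes was not tested. Kcna3, a channel of lymphocytes and microglia as well as neurons, was at 8.91 ± 0.621 and 7.54 ± 1.13 CPM, with a log2 fold change of -0.24 (SE 0.11) and an adjusted p of 0.309. Its 5 void mice lay at 9.89, 8.48, 8.46, 8.56 and 9.18 CPM and its DHT mice at 5.68, 8.46, 8.09, 7.24 and 8.22 CPM. DHT 1, which had the highest microglia sum, thus had the lowest Kcna3. Kcna5 was one of the 3 highest fold changes of the 40 at 0.23 (SE 0.16, adjusted p = 0.538). It lay at 1.66, 1.92, 1.82, 1.92 and 1.55 CPM in void mice 10, 11, 4, 5 and 9 and at 1.72, 1.55, 2.49, 2.30 and 2.35 CPM in DHT mice 1, 2, 3, 5 and 6, so that DHT 3, 5 and 6 were above every void mouse and DHT 1 and 2 were not. Kcna4, an A-type channel, and Kcna6 stood at -0.12 and -0.043.

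Kcnb2, a delayed rectifier of the Shab family, was at 62.0 ± 6.24 CPM in void and 53.7 ± 4.56 in DHT mice, a log2 fold change of -0.21 (95% interval -0.39 to -0.032) with an unadjusted p of 0.0246 and an adjusted p of 0.194, so it did not pass the test.

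The Shaw genes encode fast delayed rectifiers of rapidly firing interneurons. Kcnc1, Kcnc2 and Kcnc4 did not pass the adjusted threshold. Kcnc2 stood at -0.17 (95% interval -0.29 to -0.055, adjusted p = 0.0936). It lay at 159 to 167 CPM in void mice and at 137 to 161 in DHT mice, where DHT 2 alone reached the void range. Kcnc4 stood at -0.28 (adjusted p = 0.225), and Kcnc1 at -0.12 with an interval from -0.30 to 0.056. Of the Shal genes, which carry the A-type current of dendrites, Kcnd3 stood at -0.19 (adjusted p = 0.116), Kcnd2 at -0.14 (adjusted p = 0.407) and Kcnd1 at -0.083. Kcnd2 was at 199, 228, 219, 176 and 201 CPM in void mice 10, 11, 4, 5 and 9 and at 203, 190, 168, 183 and 189 CPM in DHT mice 1, 2, 3, 5 and 6, and void 5, 9 and 10 lay among the DHT mice.

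Among the KCNQ genes, Kcnq3 and Kcnq5 encode subunits of the M-current, which acetylcholine shuts off. Kcnq1, Kcnq3 and Kcnq5 passed at neither the adjusted nor the unadjusted threshold. Kcnq3 was at 412 to 525 CPM in void mice and at 370 to 469 CPM in DHT mice, with DHT 1 and DHT 2 within the void range. The log2 fold change of Kcnq3 was -0.15 (95% interval -0.35 to 0.041). Kcnq5 was higher in mean, 155 ± 9.36 against 145 ± 17.4 CPM, at 0.095 (95% interval -0.084 to 0.27). Kcnq1 stood at 0.21 with an interval from -0.39 to 0.80. It was at 0.221, 0.509, 0.529, 0.799 and 0.465 CPM in void mice 10, 11, 4, 5 and 9 and at 0.546, 0.493, 0.754, 0.509 and 0.625 CPM in DHT mice 1, 2, 3, 5 and 6, wholly within the void range.

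The EAG, ERG and ELK genes spread most. Kcnh4, which had the lowest log2 fold change of the 40, was at 1.66, 1.95, 1.73, 2.78 and 1.15 CPM in void mice 10, 11, 4, 5 and 9 and at 0.574, 0.913, 1.07, 1.32 and 1.31 CPM in DHT mice 1, 2, 3, 5 and 6. Void 9 lay among the DHT mice. Its log2 fold change was -0.84 (SE 0.26, adjusted p = 0.0958) from 513 counts in all. Kcnh2, the ERG channel, had the highest log2 fold change, 0.32 (SE 0.18, adjusted p = 0.418). It was at 25.6, 20.5, 23.1, 20.7 and 31.2 CPM in void mice 10, 11, 4, 5 and 9 and at 24.5, 24.7, 24.0, 34.3 and 43.7 CPM in DHT mice 1, 2, 3, 5 and 6, with DHT 5 and DHT 6 above every void mouse. In Kcnh3 the same mice stood apart. It was at 70.0, 68.5, 62.6, 58.0 and 78.8 CPM in void mice 10, 11, 4, 5 and 9 and at 44.9, 49.9, 41.1, 73.8 and 80.7 CPM in DHT mice 1, 2, 3, 5 and 6, with 3 DHT mice below every void mouse, and its log2 fold change was -0.22 (SE 0.18, adjusted p = 0.611). Kcnh7 stood at -0.28 (adjusted p = 0.277), Kcnh5 at -0.21, Kcnh8 at -0.21, Kcnh6 at -0.16 and Kcnh1 at 0.051.

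Of the 10 silent subunits 9 were tested, 7 were below 0 and 0 passed, with a median of -0.20. Kcnf1 was next to Kcnh4 as the lowest log2 fold change of all members, -0.47 (SE 0.21, adjusted p = 0.280). It lay at 62.9, 66.6, 81.8, 98.3 and 62.6 CPM in void mice 10, 11, 4, 5 and 9 and at 26.8, 64.5, 54.4, 64.0 and 59.5 CPM in DHT mice 1, 2, 3, 5 and 6. DHT 1 was far below the rest and void 5 above them. Kcng1 stood at -0.31 (SE 0.16, adjusted p = 0.366). It lay at 48.7, 44.3, 46.1, 35.0 and 53.5 CPM in void mice 10, 11, 4, 5 and 9 and at 23.6, 43.1, 33.7, 41.7 and 42.2 CPM in DHT mice 1, 2, 3, 5 and 6, with DHT 1 again lowest. Kcns2 stood at -0.22 (adjusted p = 0.148), Kcns3 at -0.20 (adjusted p = 0.270), Kcng3 at -0.25, Kcng4 at -0.14 and Kcnv1 at -0.13, with Kcng2 and Kcns1 at 0.098 each.

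Of the beta subunits, Kcnab2 was at 609, 601, 565, 533 and 632 CPM in void mice 10, 11, 4, 5 and 9 and at 617, 559, 474, 655 and 701 CPM in DHT mice 1, 2, 3, 5 and 6. The DHT mice lay on both sides of the void range, and the log2 fold change was 0.032 (95% interval -0.18 to 0.24, adjusted p = 0.920). Kcnab1 stood at -0.093 (95% interval -0.25 to 0.059) and Kcnab3 at -0.20 (adjusted p = 0.263).

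**Figure D4:**
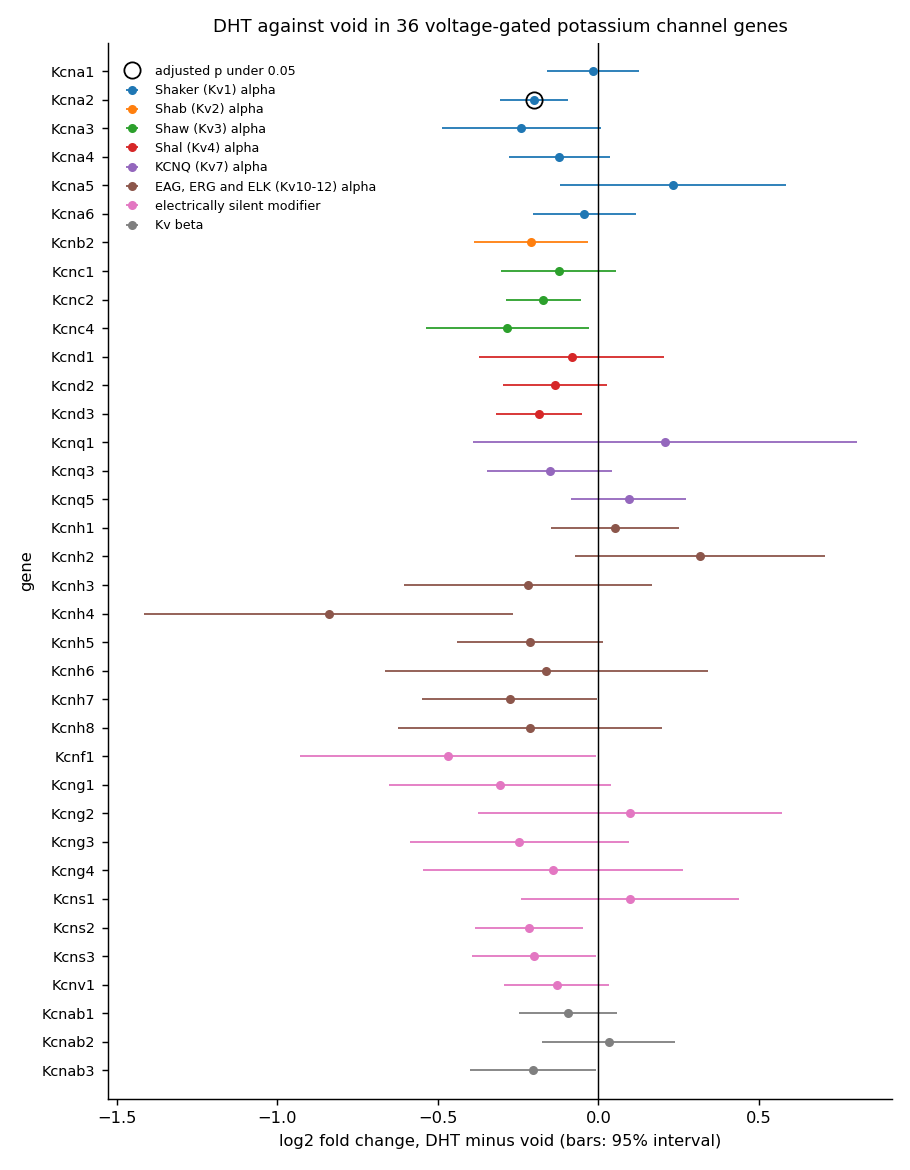
Log2 fold change, DHT minus void, of 36 members tested, grouped by family, with 95% intervals (bars) and members that passed an adjusted p of 0.05 marked. Points lie left of 0 for 28 of them, and Kcna2, at -0.20, is the 1 marked.

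Other potassium channel genes were described in the same fit. Of 13 inward rectifiers tested (Kcnj), 1 passed: Kcnj9, a G protein-gated channel of neurons, at 92.3 ± 9.87 CPM in void and 69.3 ± 10.5 in DHT mice, a log2 fold change of -0.41 (adjusted p = 0.0409). Of 11 calcium- and sodium-activated channels (Kcnn, Kcnm, Kcnt and Kcnu), Kcnt2, a sodium-activated channel, passed at -0.30 (adjusted p = 0.0394), from 42.2 ± 3.95 to 34.4 ± 2.19 CPM. Of 10 leak channels (Kcnk), Kcnk6 passed in the other direction at 0.67 (adjusted p = 0.0436), from 3.69 ± 0.267 to 5.90 ± 1.72 CPM, and its groups did not overlap. None of 12 proteins that bind Kv channels (among them the Kcne, Kcnip and Dpp genes) and none of 4 HCN channels passed in edgeR's test, and 3 and 2 of them were lower and 1 and 0 higher at an unadjusted p under 0.05. Kcne2, an accessory subunit of Kcnq1 and Kcnh2 that is also a choroid plexus gene, was at 0.569 to 22.3 CPM in void mice and at 26.6 to 44.6 in DHT mice, a log2 fold change of 2.11 with an adjusted p of 0.0913. Void 9, with the highest choroid plexus sum of its group, held the highest void value of Kcne2. Kcne2 is itself one of the markers in that sum, so the match is partly built in.

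**Figure D5:**
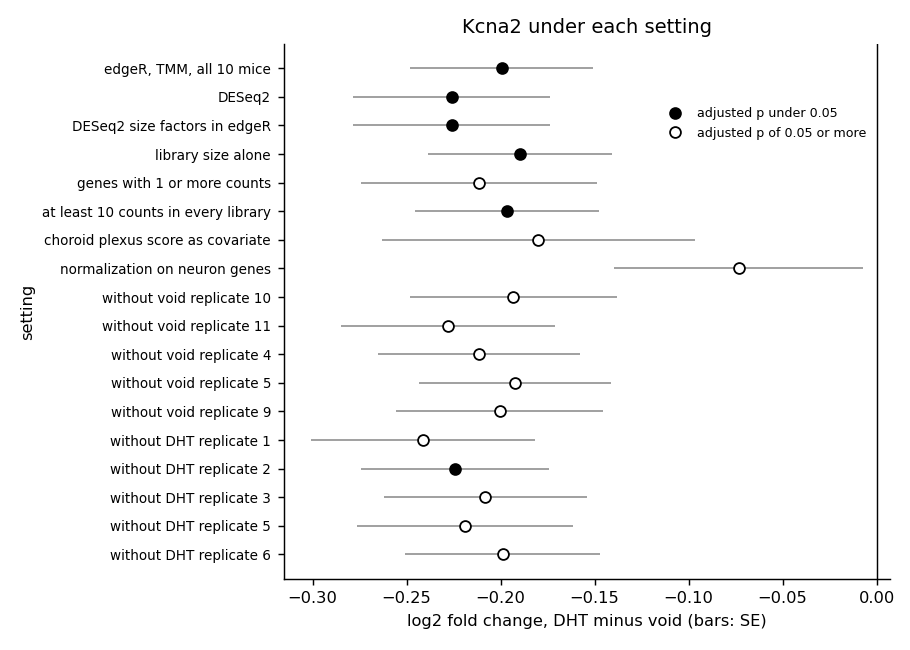
Log2 fold change (points) with its SE (bars) of Kcna2 under each way of processing the counts, with filled points where the adjusted p was under 0.05. Estimates stay below 0 throughout and come nearest to it with neuron markers as the scale, -0.073.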

How the data were processed

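Hippocampal mRNA libraries (KAPA mRNA HyperPrep) of 5 void and 5 DHT mice were sequenced by the authors, trimmed with HTStream and aligned with STAR 2.7.10b, the version in the submitters' processing notes. The methods name mm10 and those notes name GRCm39, and the annotation release, the strand setting and the treatment of multimapping reads are not given in the sources used here. The deposited values are raw counts per gene, with 27188854 to 33805888 in 4 void libraries and 47113661 in void 4, and 33523527 to 45947784 in DHT libraries. The counts behind a value set its precision, and the tests use the spread between mice.

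Groups came from the sample labels. Of the identifiers, 51948 (91.3%) had a symbol in GENCODE M21 by identifier without version, and all 42 members carry a later version in the table than in M21, so exon lengths, positions and coding sequences (GRCm38) may differ from the models counted. The fit used edgeR 4.0.16 under R 4.3.3, with TMM scaling, filterByExpr by group (17622 genes kept) and a quasi-likelihood F test, whose p-values were adjusted by Benjamini-Hochberg over all genes kept. CPM is counts per 1000000 of the TMM-scaled library size over the genes kept, and SE was taken as the size of the log2 fold change over the root of F. Both count models were tested on simulated counts. DESeq2 1.42.0, other scalings and filters, a choroid plexus covariate, neuron markers as the scale and leaving out each mouse were the alternatives.

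The members, gene lists and tests were chosen with earlier results of these data known. Values in every mouse were given for members past the adjusted threshold, members with groups apart, the extremes of fold change, the highest levels, the highest member of each family, Kcna3 and Kcnq1. Other potassium genes were named at an adjusted p under 0.05, and Kcne2 was chosen after its values were seen. Results for 4 members enter counts and summaries and are not reported here by name.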

Additional observations from a re-analysis of the deposited data

Results flagged for a closer look

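In 80 groups of 5 mice (40 members in each treatment group), the gap between the highest or lowest mouse and its nearest neighbour was set against the range of the group. It exceeded the critical value of 0.71 in 3 groups. Chance flags about 1 in 20 groups, or 4 of 80. In DHT mice, Kcnf1 had its lowest value in DHT 1 (26.8 CPM beside 54.4 to 64.5), with a gap of 0.732 of the range. Kcnd3 was also lowest in DHT 1 (124 CPM beside 142 to 149), with a gap of 0.714. Kcnh6 was highest in DHT 6 (3.22 CPM beside 1.28 to 1.83), with a gap of 0.720. Without DHT 1 the log2 fold change of Kcnf1 was -0.33 and that of Kcnd3 was -0.18, and without DHT 6 that of Kcnh6 was -0.45, with no call gained or lost in any of them.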

How the results depend on the processing

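With all mice, 2 members were called lower, 5 with DESeq2 (Kcna2, Kcnc2, Kcnd3 and Kcnh4 among them), 12 at an unadjusted p, 0 with a log2 fold change beyond 1, 0 with genes of 1 or more counts kept, 0 with the choroid plexus covariate, 0 with neuron markers as the scale and 0 to 3 with 1 mouse left out (3 without DHT 2). Genes called lower over the whole table numbered 46, and 226 with DESeq2, 34 with low genes kept, 0 with the covariate, 7 on the neuron scale and 5 to 77 with a mouse left out. The cause was not tested. Members called higher numbered 0 in all of these. Other potassium channel genes called lower numbered 2, and 4 with DESeq2, 1 with library size alone, 1 with low genes kept, 0 with the covariate, 1 on the neuron scale and 0 to 1 with a mouse left out. Those called higher numbered 1, and 0 with DESeq2 size factors in edgeR, 3 with low genes kept, 0 with the covariate, 4 on the neuron scale and 0 to 2 with a mouse left out. On the neuron scale the log2 fold change turned positive for Kcna1 (0.10), Kcna4 (0.0015), Kcna6 (0.078), Kcnab1 (0.034) and Kcnd1 (0.033). With the covariate the sign turned for Kcnab2 (-0.039), Kcng2 (-0.21), Kcnh1 (-0.18), Kcnh8 (0.25) and Kcnq5 (-0.11). With a mouse left out it crossed 0 for Kcna1 (-0.065 to 0.022), Kcna6 (-0.093 to 0.0033), Kcnab2 (-0.037 to 0.081), Kcng2 (-0.075 to 0.22), Kcng4 (-0.26 to 0.021), Kcnh1 (-0.0046 to 0.10) and Kcns1 (-0.053 to 0.18). No paired analysis was possible because the sample labels name no litter or pair. The paper states that littermates were randomized to the hormone and that mice shared housing within their treatment group, so cage and DHT cannot be told apart. Depth limits Kcnh4, Kcnh8, Kcnq1, Kcnv2 and Kcna10 most.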
